A study of Mus musculus with 15 samples.

Results

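The insulin-like growth factor (IGF) axis was followed in mouse cells after a single introduced protein was made to unfold. It was taken as 10 genes chosen by name, the ligands Igf1 and Igf2, the receptors Igf1r and Igf2r, and the binding proteins Igfbp2 to Igfbp7, out of 20207 genes listed for each library. The choice was made with results of these data in view, a lower late level of Igf1 among them, so the comparison of the last time point with control is given for the members as a description, with no p-value. Of the 10 members, 6 had at least 1 read in all 15 libraries and entered the tests, as did 10276 genes in all. The other 4 (Igfbp2, Igfbp3, Igfbp4 and Igfbp5) are given as counts.

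The cells were NIH3T3, a mouse embryonic fibroblast line, and every sample, control included, carried a stably inserted DD-sfGFP transgene and was grown with Shield-1 (S1). The DD is a destabilizing domain, a mutant (L106P) of the FKBP protein that folds while S1 is bound to it, and sfGFP is superfolder GFP. The transgenic cells were a population sorted for high GFP and not a single clone. In 5 control samples S1 was left in place, and it was withdrawn, by adding a purified FKBP(F36V) protein that binds it, 45 min (3 samples), 135 min (3 samples) or 405 min (4 samples) before the RNA was collected. The labels do not say whether replicates were separate cultures, so p-values measure the spread between these samples, which may be technical. In bulk RNA of this kind, fewer cells expressing a gene and less RNA per cell cannot be told apart.

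Libraries held 6652539 to 30258404 counts in genes. They formed 2 sets by how strongly read counts followed the GC content of genes, called library set 1 (10 libraries) and library set 2 (control replicate 2, 45 min replicate 3 and 405 min replicates 1, 2 and 4). Of the 10276 genes tested, 5146 differed between the sets, and 3 of 4 libraries at 405 min belonged to set 2 against 1 of 5 control libraries. The 405 min value of each tested member is therefore also given within each set. The slope of counts on GC content still varied within set 1, where all control libraries (-0.719 to -0.290) lay below all treated ones (-0.235 to 0.031). Neither values within set 1 nor library set as a covariate remove this difference. The 8 fibroblast markers (collagens, vimentin and Pdgfrb among them) were all detected in every library and summed to 12081 to 19522 CPM (counts scaled by the library's total count). Of 11 markers of other cell types, 10 were listed and none passed the filter, with sums of 0.865 to 5.70 CPM.

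Igf1 and Igf2 are secreted growth factors related to insulin. Both signal through Igf1r, a receptor tyrosine kinase that recruits IRS adaptors and the PI3K, AKT and mTOR pathway and supports growth and survival of fibroblasts. Igf2r, also known as the cation-independent mannose 6-phosphate receptor, binds Igf2 without signalling as a kinase, carries it to lysosomes, and sorts newly made lysosomal enzymes. The binding proteins hold IGFs outside the cell and regulate their access to receptors. Igfbp6 prefers Igf2, whereas Igfbp7 binds IGFs weakly and is found in the extracellular matrix.

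Promoter windows are shown for the members with the highest read counts (Igf1r, Igf2r, Igfbp6 and Igfbp7), a choice that did not use the motifs below. Each runs from 250 bases before to 50 bases after the RefSeq start site (assembly GRCm38.p6) and is written 5′ to 3′ on the gene's strand. They lie at chr7:67952007-67952306 (plus strand), chr17:12769657-12769956 (minus strand), chr15:102143936-102144235 (plus strand) and chr5:77407996-77408295 (minus strand), respectively. Capitals mark matches on either strand to any of 6 motifs, which were the GC box (GGGCGG), the CCAAT motif, a heat shock element core (GAANNTTC), an antioxidant response element core (TGACNNNGC), the AP-1 site (TGANTCA) and the promoter element known as the TATA box (searched as TATAAA).
Igf1r: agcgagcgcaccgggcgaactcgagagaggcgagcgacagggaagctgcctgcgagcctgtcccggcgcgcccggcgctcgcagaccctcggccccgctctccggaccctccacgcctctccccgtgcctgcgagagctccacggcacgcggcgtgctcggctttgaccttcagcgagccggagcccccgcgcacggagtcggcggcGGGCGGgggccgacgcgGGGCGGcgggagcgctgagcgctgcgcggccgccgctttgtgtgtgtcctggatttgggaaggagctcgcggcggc
Igf2r: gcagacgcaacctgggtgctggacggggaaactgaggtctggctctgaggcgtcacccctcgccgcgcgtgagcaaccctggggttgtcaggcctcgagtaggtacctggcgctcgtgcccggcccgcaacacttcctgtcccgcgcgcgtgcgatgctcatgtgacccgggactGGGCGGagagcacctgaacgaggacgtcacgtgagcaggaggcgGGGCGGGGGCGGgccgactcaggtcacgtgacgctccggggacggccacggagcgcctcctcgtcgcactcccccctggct
Igfbp6: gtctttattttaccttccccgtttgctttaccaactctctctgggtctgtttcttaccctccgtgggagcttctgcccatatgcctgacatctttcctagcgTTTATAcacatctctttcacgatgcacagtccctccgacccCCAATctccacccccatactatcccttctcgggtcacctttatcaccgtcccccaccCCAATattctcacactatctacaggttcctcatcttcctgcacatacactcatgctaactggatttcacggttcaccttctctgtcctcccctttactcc
Igfbp7: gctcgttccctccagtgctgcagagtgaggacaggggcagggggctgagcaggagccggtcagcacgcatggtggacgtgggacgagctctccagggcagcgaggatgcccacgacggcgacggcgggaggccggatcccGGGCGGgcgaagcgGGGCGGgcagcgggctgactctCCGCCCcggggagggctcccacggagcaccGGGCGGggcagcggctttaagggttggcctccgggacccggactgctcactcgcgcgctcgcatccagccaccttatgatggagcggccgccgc
The windows of Igf1r, Igf2r and Igfbp7 were GC-rich (76%, 70.7% and 73.3% GC) and held 2, 3 and 4 GC boxes. The Igfbp6 window had 49.7% GC, no GC box, 2 CCAAT motifs and 1 match to TATAAA. That match is on the strand opposite to the gene (TTTATA) and is given as letters only. Over 32851 promoters of the same length the median was 52.7% GC, and 35.7% held a GC box, 13.6% TATAAA on either strand and 37.4% CCAAT. None of the 4 windows held the heat shock element core, the antioxidant response element core or the AP-1 site, which 7.86%, 12.4% and 7.81% of promoters held. Among RefSeq windows of the other members, which are not printed, the AP-1 site was in that of Igf1 and in 1 of Igfbp2, the antioxidant response element core in 1 of Igf2 and 1 of Igfbp2, and the heat shock element core in that of Igfbp5. A match to these letters is a description of the window and not evidence of binding.

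NIH3T3 cells expressed both IGF receptors and a pair of binding proteins strongly, and both ligands weakly. Per kilobase of the gene model in each library, control levels averaged 464 ± 256 CPM per kilobase for Igfbp7, 44.0 ± 24.98 for Igfbp6, 26.7 ± 10.4 for Igf2r, 14.9 ± 2.14 for Igf1r, 1.497 ± 0.319 for Igf1 and 0.861 ± 0.307 for Igf2 (SD, n = 5). The order was the same in 5 of 5 control libraries. The control ranges of neighbours in this order did not overlap between Igfbp7 and Igfbp6, nor between Igf1r and Igf1, whereas those of the other neighbouring pairs did.

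None of the 6 tested members passed the test at 45 min or at 135 min. By edgeR's quasi-likelihood test with Benjamini-Hochberg adjustment over all tested genes, 0 of 6 passed an adjusted p of 0.05 at 45 min (0% of all tested genes), 0 of 6 at 135 min (1.46% of all tested genes), and 0 of 6 for 135 min against 45 min (0.428%). None reached an unadjusted p of 0.05 in these comparisons, and DESeq2 called 0 members in each. No tested member had CPM ranges that were separate between the compared groups in these 3 comparisons, against 0.963%, 9.05% and 22% of tested genes. At 405 min 1 of the 6 members (Igf2r) lay above and 2 (Igf1 and Igf1r) lay below the control range in CPM, beside 7.57% and 5.74% of tested genes (13.3% together). That contrast was in view when the members were chosen, and nothing is read from these counts.

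**Figure D1:**
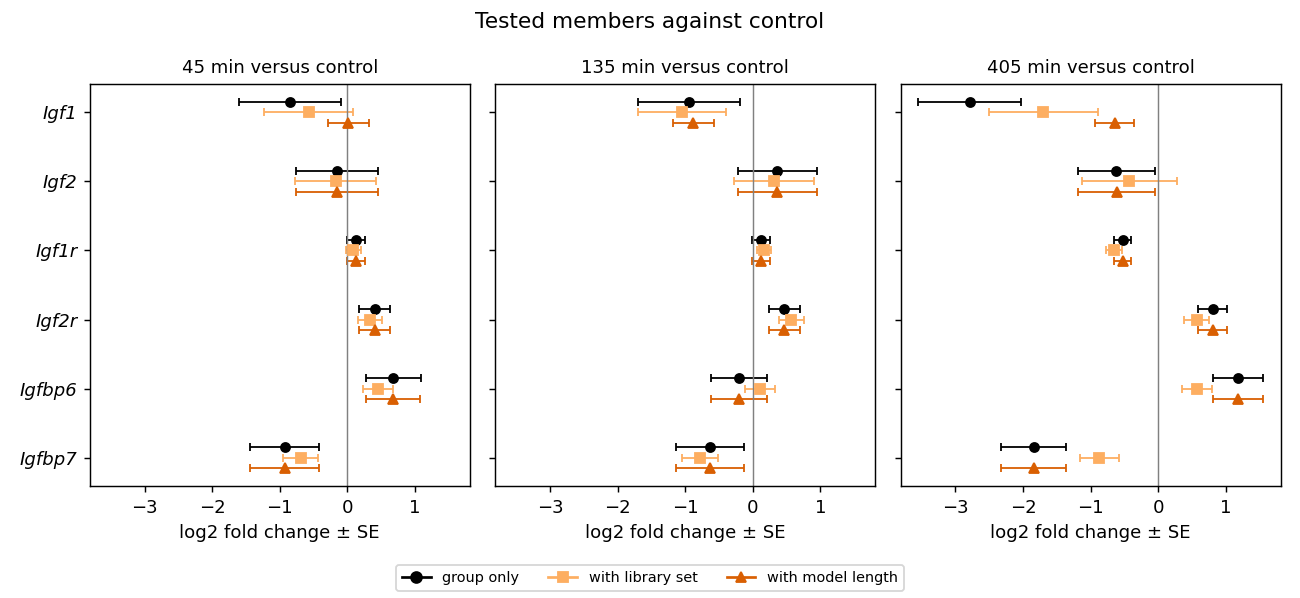
Log2 fold change against control (x axis, bars show SE) of the 6 tested members at 45, 135 and 405 min, from the fit with group alone, with library set as a covariate, and with an offset for the length of the gene model. Igf1 at 405 min moves from -2.79 to -0.65 with the length offset, and the other members keep their values under it.

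For Igf1 the deposited rows did not count the same stretch of the gene in every library, and this bears on every Igf1 value. On mm9, where Igf1 lies on the plus strand of chromosome 10, 9 libraries used a short gene model (chr10:87323856-87378515) and 6 used a long one. The long model ran from 87321801 to 87399792 in 5 libraries and from 87323856 to 87399792 in control replicate 3. The ratio of counts to RPKM implied a length of about 1087 bases for the short model and of 6988 to 7121 bases for the long ones. A GENCODE transcript with the same span as the long model is 7121 bases long, 6373 of them in its last exon, and the short model ends before that exon starts. The short model stood in control replicates 1 and 2, 45 min replicates 2 and 3, 135 min replicate 1 and all 4 replicates at 405 min. Igf1 thus had the short model in every library at 405 min, against 2 of 5 in control.

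Igf1 counts were 22, 29, 73, 121 and 258 in control replicates 1 to 5, and 251, 18 and 34 at 45 min. They were 20, 106 and 136 at 135 min, and 11, 20, 13 and 25 at 405 min. As CPM, the 9 libraries with the short model held 0.812 to 2.17 and the 6 with the long model 4.73 to 13.95, so the models did not overlap in any group. Between 405 min and control Igf1 differed by -2.79 on the log2 scale (SE 0.763), and the 405 min libraries (0.812, 0.983, 1.26 and 1.49 CPM) lay below all controls (1.55, 1.55, 10.97, 7.77 and 13.95 CPM). The 2 control libraries counted on the short model lay just above the highest 405 min library.

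Dividing each library's CPM by its own model length brought the groups together. Control libraries then held 1.42, 1.42, 1.57, 1.09 and 1.97 CPM per kilobase, and the 405 min libraries 0.747, 0.904, 1.16 and 1.37. The ranges overlapped. With the model length as an offset in the fit, the difference at 405 min was -0.65 (SE 0.289), and among the 9 libraries with the short model alone it was -0.51 (SE 0.402). It was -2.86 (SE 1.36) within library set 1, which mixes both models, and -0.49 (SE 0.550) within set 2, where every library has the short model. Each of these values was below control. The value within library set 1 was not smaller in size than in the fit with group alone (-2.79), whereas the others were.

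At 45 min Igf1 differed from control by -0.84 (SE 0.752, adjusted p = 0.698), and with the length offset by 0.01 (SE 0.303, adjusted p = 0.986). The libraries at 45 min held 1.17, 1.75 and 1.99 CPM per kilobase. At 135 min the values were -0.94 (SE 0.754, adjusted p = 0.676) and, with the offset, -0.88 (SE 0.306, adjusted p = 0.227), and the libraries held 1.08, 0.745 and 0.670 CPM per kilobase. All 3 of these lay below every control library (1.09 to 1.97), by a small margin for replicate 1. This separation appeared after the length correction, and the difference did not pass the test. The share of tested genes separated in this way after the correction was not counted, so nothing is read from it.

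**Figure D2:**
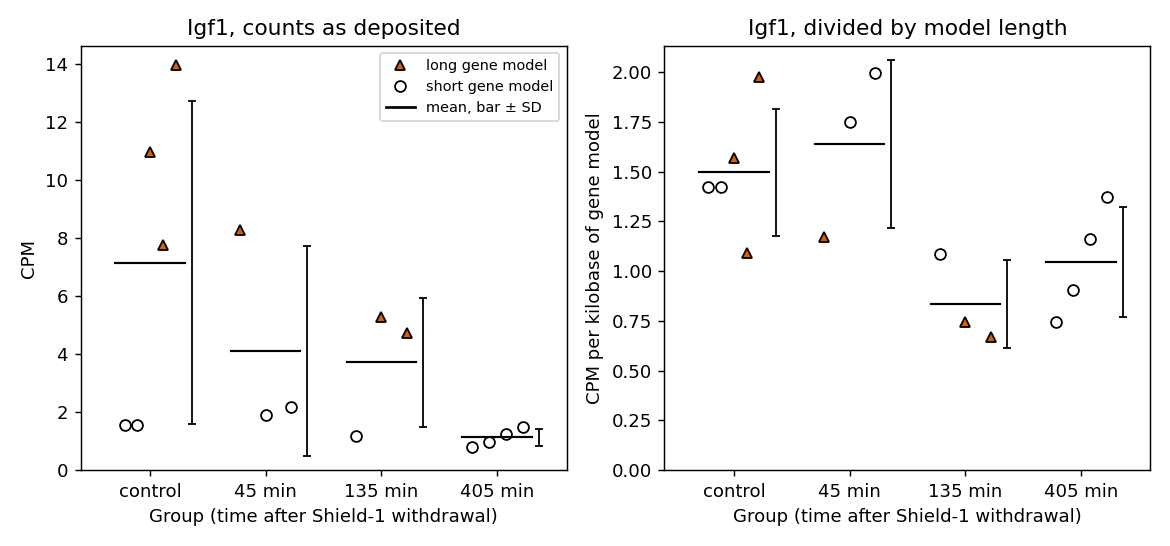
Igf1 by library and group as CPM (left) and as CPM per kilobase of the gene model in that library (right), with mean and SD of each group and the long and short gene models marked. On the left every long-model library (4.73 to 13.95 CPM) lies above every short-model library, and on the right the control and 405 min ranges overlap.

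Length differences of this size were rare. Gene coordinates differed between libraries for 506 (4.92%) of the tested genes, the implied length by more than 1.5-fold for 137 (1.33%), and only 2 other tested genes had a length ratio as large as that of Igf1 (6.55-fold). The other 9 members had 1 gene model each. Over the 15 libraries, with CPM not corrected for model length, the 5 profiles closest to that of Igf1 included those of 2610021K21Rik, Gm11818, Akr1c14 and 1110032A03Rik, and the 5 had root mean square differences of 0.80 to 0.83 log2 units against a median of 1.40 over tested genes. The 5 were picked for closeness, so values below that median follow from the choice. All 5 had a single gene model, whereas the Igf1 profile they were matched to includes the switch between its short and long models. No shared regulation is read from this likeness.

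Igf2, the second ligand, lies on the minus strand of chromosome 7 (mm9, chr7:149836673-149843386) and was at a few CPM throughout. Control replicates 1 to 5 held 4.22, 3.15, 4.36, 2.44 and 1.73 CPM, and the 45 min libraries 3.67, 4.43 and 0.765. The 135 min libraries were the closest together, at 3.83, 3.98 and 4.32 CPM. The 405 min libraries formed a higher and a lower pair, at 3.32, 3.93, 0.679 and 0.892 CPM. Igf2 differed from control by -0.16 (SE 0.606, adjusted p = 0.906) at 45 min, by 0.36 (SE 0.588, adjusted p = 0.869) at 135 min and by -0.62 (SE 0.563) at 405 min, and the groups overlapped at each time. The 405 min value rests on few libraries. It was -2.31 (SE 0.774) within library set 1, whose only 405 min library holds the lowest level, -0.20 (SE 0.591) within set 2 and -0.43 (SE 0.697) with library set as a covariate. It was -0.34 without 405 min replicate 3, -0.35 without replicate 4 and -1.08 without replicate 2. Its neighbours were silent or nearly so, with Ins2 at 0 in every library and the imprinted H19, expressed from the opposite parental allele, at no more than 0.324 CPM.

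Igf1r, the signalling receptor, was slightly lower at 405 min than in control. It lies on the plus strand of chromosome 7 (mm9, chr7:75097143-75378553). Control replicates 1 to 5 held 159, 207, 156, 165 and 206 CPM. At 45 min the libraries held 174, 195 and 245 CPM, at 135 min 189, 202 and 184, and at 405 min 153, 142, 109 and 134. All 405 min libraries lay below all controls, but the highest of them was only just under the lowest control. The log2 difference was -0.52 (SE 0.125) at 405 min, and it was -0.75 within library set 1 and -0.54 within library set 2. At 45 min it was 0.12 (SE 0.134, adjusted p = 0.709) and at 135 min 0.12 (SE 0.134, adjusted p = 0.789). Igf1r was the member whose difference at 405 min changed least when library set was a covariate (-0.66).

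Igf2r, the clearance and lysosomal sorting receptor, was higher at 405 min. It lies on the minus strand of chromosome 17 (mm9, chr17:12875272-12962572). Control replicates 1 to 5 held 228, 346, 120, 185 and 314 CPM. The libraries at 45 min held 291, 258 and 433 CPM, those at 135 min 326, 324 and 311, and those at 405 min 477, 457, 369 and 472. Every 405 min library lay above every control library. The log2 difference was 0.80 (SE 0.213) at 405 min, 0.72 within library set 1 and 0.43 within set 2. It was 0.40 (SE 0.230, adjusted p = 0.698) at 45 min and 0.46 (SE 0.230, adjusted p = 0.452) at 135 min. With library set as a covariate, the values were 0.33 (SE 0.180, adjusted p = 0.490), 0.57 (SE 0.181, adjusted p = 0.0629) and 0.57 at 45, 135 and 405 min. The non-coding RNA gene Airn, transcribed from the opposite strand, overlaps Igf2r by 28396 bases and held 1.75 to 6.78 CPM, and the strand setting of the counting is not given in the sources used here.

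**Figure D3:**
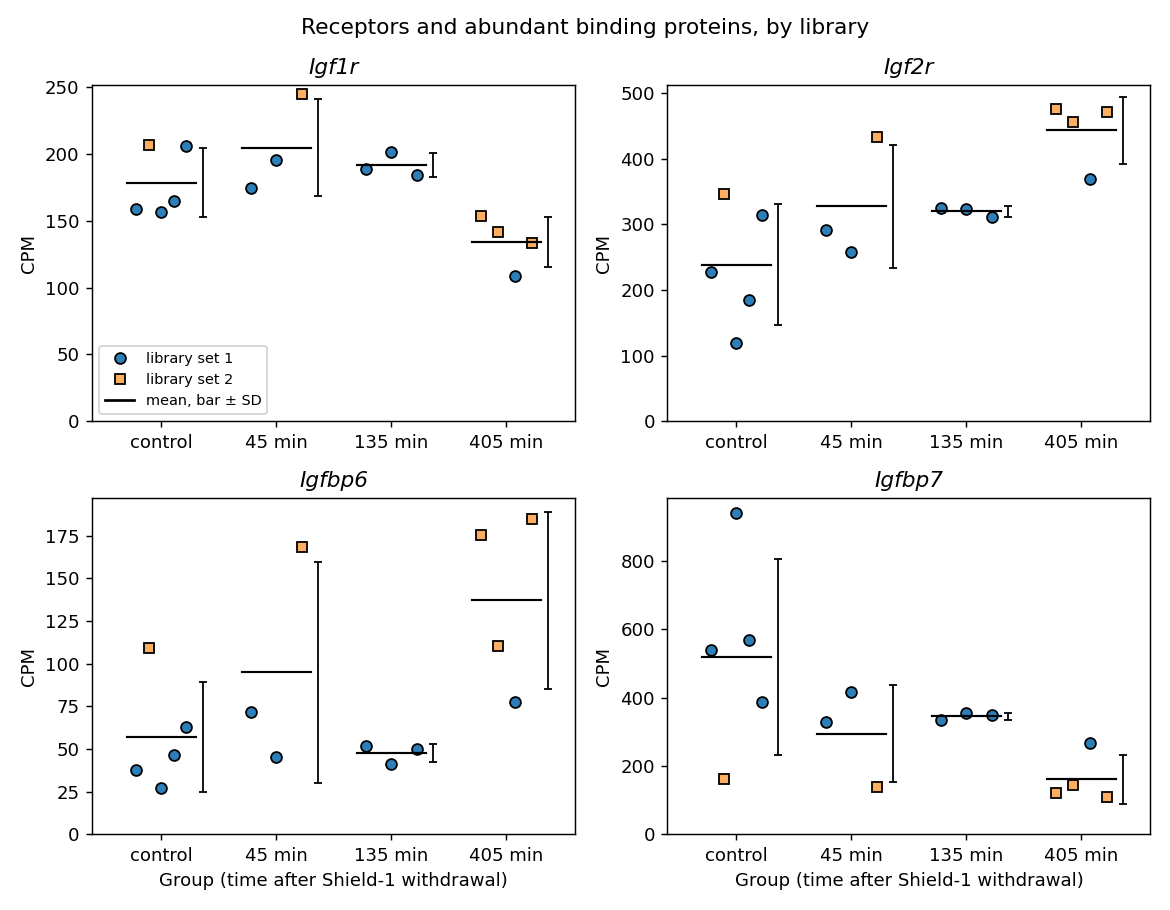
CPM of Igf1r, Igf2r, Igfbp6 and Igfbp7 by library and group, with mean and SD of each group. Library set 2 (squares) holds the highest Igfbp6 and the lowest Igfbp7 libraries of control and of 45 min, and at 405 min Igf2r lies at 369 to 477 CPM, above all controls.

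Among the binding proteins, Igfbp6 and Igfbp7 were the abundant ones. At 405 min Igfbp6 lay higher and Igfbp7 lower than control on average, and both differed between library sets. Igfbp6 lies on the plus strand of chromosome 15 (mm9, chr15:101974617-101979943). It held 37.6, 109, 27.4, 46.6 and 62.8 CPM in control replicates 1 to 5, and 71.9, 45.0 and 168 CPM at 45 min. It held 51.7, 41.4 and 49.8 CPM at 135 min and 176, 110, 77.6 and 185 CPM at 405 min. The highest library of control (replicate 2) and of 45 min (replicate 3) were those of set 2. The log2 difference at 405 min was 1.18 (SE 0.373), and it was 0.74 within set 1, which has a single library at 405 min, and 0.50 within set 2, which has a single control. With library set as a covariate it was 0.58 (SE 0.222). At 45 min it was 0.68 (SE 0.401, adjusted p = 0.698) and at 135 min -0.21 (SE 0.410, adjusted p = 0.895).

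Igfbp7, the most abundant member, lies on the minus strand of chromosome 5 (mm9, chr5:77778265-77837070). It held 541, 161, 942, 570 and 386 CPM in control replicates 1 to 5, and 330, 416 and 139 CPM at 45 min. The 135 min libraries, all of set 1, were close together at 335, 354 and 348 CPM, below the 4 controls of set 1. The share of tested genes separated in this way within set 1 was not counted, so nothing is read from it. The 405 min libraries held 122, 144, 268 and 110 CPM, and the control of set 2 lay inside their range. The log2 difference was -0.92 (SE 0.510, adjusted p = 0.698) at 45 min, -0.63 (SE 0.504, adjusted p = 0.674) at 135 min and -1.85 (SE 0.478) at 405 min. With library set as a covariate it was -0.69 (SE 0.264, adjusted p = 0.488), -0.78 (SE 0.263, adjusted p = 0.0756) and -0.87 at these times, and at 405 min it was -1.31 within set 1 and -0.36 within set 2.

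In the fit with library set as a covariate, set 2 differed from set 1 by 1.16 (SE 0.192) for Igfbp6 and by -1.62 (SE 0.256) for Igfbp7. For comparison it was 0.45 (SE 0.161) for Igf2r, 0.23 (SE 0.09996) for Igf1r and -0.26 (SE 0.652) for Igf2. It was -1.52 (SE 0.717) for Igf1, which had the short gene model in every library of set 2. Both binding protein genes were GC-rich (60.7% and 58.6% of exonic bases, above 98.0% and 94.4% of tested genes). Counts rose with GC content in set 2, where Igfbp6 was higher and Igfbp7 lower than in set 1. The part of library set in the differences of Igfbp6 and Igfbp7 at 405 min was not tested apart from these fits.

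The remaining binding proteins were near the limit of detection. A count of 3 corresponds to 0.0991 CPM in the deepest library and 0.451 CPM in the shallowest. Igfbp3, the main carrier of IGFs in blood, had no reads in any of the 5 control libraries or the 4 libraries at 405 min. It had 7, 3 and 1 reads at 45 min and 0, 1 and 2 at 135 min. The 11 reads pooled at 45 min (0.198 CPM) were at least 4.87-fold higher than the 3 counts (0.0407 CPM) that the pooled control libraries could hold unseen. Igfbp3 is the only member that had reads in every library of a treated group and in no control. The share of all 20207 genes with this pattern was not counted, so the pattern is not read as particular to Igfbp3. With no filter on low counts its edgeR test at 45 min gave an adjusted p = 0.674.

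Igfbp2 had 5 reads in 1 library at 135 min, 6 and 1 reads in 2 libraries at 405 min, and none in the 8 control and 45 min libraries. Igfbp4, which the protease Pappa cleaves, had 0 to 14 reads in control libraries and 5 to 27 at 45 min. It had 1.98 to 8 reads at 135 min and 2 to 17 at 405 min, and was above 0 in 13 of 15 libraries. Igfbp5, which binds extracellular matrix, had 0, 1, 15, 1 and 0 reads in control replicates 1 to 5. It had 16, 3 and 2 reads at 45 min, 34, 5 and 16 at 135 min, and 10 reads in 1 of 4 libraries at 405 min. The reads of Igfbp4 and Igfbp5 varied as much within groups as between them. Igfbp2 and Igfbp5 are neighbours on chromosome 1, with 5593 bases between them, and Igfbp3 is 3546 bases from Igfbp1, which reached no more than 0.105 CPM.

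**Figure D4:**
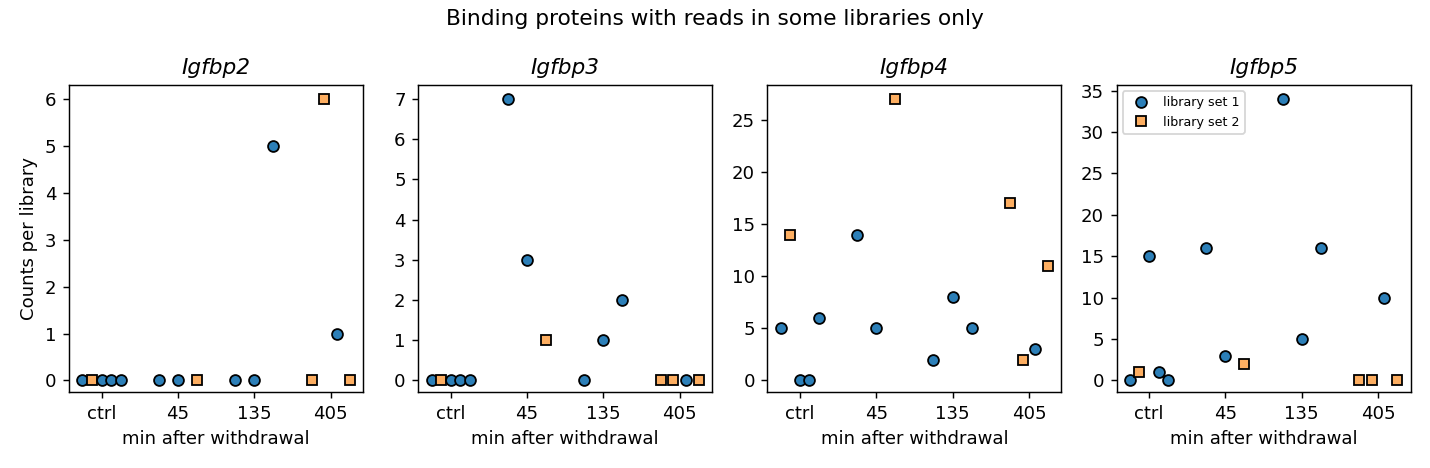
Expected read counts of Igfbp2, Igfbp3, Igfbp4 and Igfbp5 by library and group (1 point per library, counts not scaled for depth). Igfbp3 has 7, 3 and 1 reads at 45 min and none in control or at 405 min.

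Genes around the axis were taken as 4 lists, of which 40 of 47 genes were tested. Like the members, the lists were chosen with earlier results of these data known. The p-values of list genes at 405 min are therefore a description, and no conclusion rests on them. None of the 40 passed the edgeR test at 45 min, at 135 min or for 135 min against 45 min. In these comparisons 1, 7 and 2 of them had an unadjusted p under 0.05. DESeq2 calls there were looked up only for the 9 list genes that passed edgeR at 405 min, and were 0. At 405 min 9 of 40 passed (4 higher and 5 lower), beside 23.4% of all tested genes (9.99% higher and 13.4% lower). The carriers, proteases and stanniocalcins gave 0 of 6 tested genes at 405 min, with 9 listed. Their most expressed genes were the proteases Adam12 (6.62 ± 2.97 RPKM in control, SD, n = 5) and Pappa (1.19 ± 0.408 RPKM), which differed from control at 405 min by -0.48 (SE 0.177, adjusted p = 0.0622) and -0.15 (SE 0.170, adjusted p = 0.505). Receptor-proximal genes gave 0 of 7 tested of 10 listed. The adaptors Grb10, an inhibitor of IGF receptor signalling, and Grb2 (39.2 ± 14.9 and 17.4 ± 5.44 RPKM) differed by -0.25 (SE 0.143, adjusted p = 0.184) and 0.25 (SE 0.145, adjusted p = 0.199).

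In the PI3K, AKT and mTOR list 6 of 20 tested genes passed at 405 min, 4 higher and 2 lower. Of all tested genes 23.4% passed (9.99% higher and 13.4% lower). The list's median difference was 0.34 against -0.00139 over all tested genes. Its most expressed genes, the mTOR activator Rheb (53.0 ± 20.2 RPKM) and the kinase Akt1 (39.1 ± 20.2 RPKM), differed by -1.07 (SE 0.437, adjusted p = 0.0842) and 0.46 (SE 0.244, adjusted p = 0.166). Genes named here because they passed were chosen after their values were seen. Rptor, which encodes the mTORC1 subunit raptor, rose by 1.55 (SE 0.316, adjusted p = 0.00462), from 34.4 ± 18.8 CPM in control (SD, n = 5) to 108 ± 39.5 CPM (SD, n = 4). Pik3r1, a regulatory subunit of PI3K, fell by 1.16 (SE 0.252, adjusted p = 0.00656), from 209 ± 81.4 to 103 ± 7.40 CPM. Pik3r1 had 2 gene models with lengths 1.18-fold apart, and its difference with the length offset was -1.34. With library set as a covariate, Rptor still differed by 0.97 (adjusted p = 0.000297) and Pik3r1 by -0.93 (adjusted p = 0.0243). Rictor (0.51, adjusted p = 0.0223), Foxo1 (0.67, adjusted p = 0.0333) and Foxo3 (1.25, adjusted p = 0.0386) passed too, and none of these 3 did so with library set as a covariate (adjusted p = 0.0552, 0.0581 and 0.152).

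In the list of growth hormone input and IGF2 mRNA-binding proteins 3 of 7 tested genes passed at 405 min, all lower, where 13.4% of all tested genes were called lower. With library set as a covariate 2 of the 3 still passed. Ghr, the growth hormone receptor, through which growth hormone induces Igf1 in many tissues, fell by 1.28 on the log2 scale (SE 0.157, adjusted p = 0.000161), from 72.4 ± 7.32 CPM in control (SD, n = 5) to 32.3 ± 4.72 CPM (SD, n = 4). At 45 min and 135 min it held 63.5 ± 7.33 and 66.4 ± 2.80 CPM (SD, n = 3 each) and differed by -0.26 (adjusted p = 0.698) and -0.12 (adjusted p = 0.839). Ghr had 2 gene models with lengths 1.13-fold apart, and its difference at 405 min was -1.38 with the length offset. It was -1.05 with library set as a covariate (adjusted p = 1.49e-05) and -1.03 within library set 1, which has a single library at 405 min. Igf2bp2, which binds IGF2 mRNA, fell by 0.56 (SE 0.105, adjusted p = 0.00282), from 286 ± 34.3 to 209 ± 16.9 CPM, and by 0.50 with library set as a covariate (adjusted p = 0.00312). Igf2bp3, named after its values were seen, differed by -0.69 (adjusted p = 0.0314) and by -0.38 with library set as a covariate (adjusted p = 0.115). At the same time 4 of the 8 fibroblast markers (Col1a2, Col3a1, Pdgfrb and Vim) were lower, with differences of -0.39 to -0.87. Pdgfrb was lower at 135 min as well (-0.92, adjusted p = 0.0418). The part of these markers in the results above was not tested.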

How the data were processed

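Poly(A) RNA of 15 NIH3T3 samples was sequenced on an Illumina HiSeq. Library preparation is given as the NuGEN Encore Complete kit by the labels, and as that kit or a random-hexamer protocol by the methods. The authors aligned reads to mm9 and quantified RefSeq genes on DNAnexus, with the aligner and strand setting not given in the sources used here. The expected counts deposited by the authors need not be whole. The deposited RPKM values divide reads by gene length and depth and gave the length of each gene model here, calibrated on 939 genes with 1 transcript. A score (Z-score) and a ratio to the root mean square RPKM, both deposited by the authors, were not used.

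Counts were rounded and tested with edgeR 4.0.16 (R 4.3.3; TMM, quasi-likelihood F test, 15 samples, group only) on the 10276 genes that every library counted at least once, at a Benjamini-Hochberg adjusted p of 0.05. SE was the log2 fold change over the root of F. The test was tried on simulated counts with known fold changes. DESeq2 1.42.0 was an alternative. Library set was assigned by the slope of log2 CPM, centred on each gene's mean, on exonic GC content per 10 percentage points. Slopes above 0.2 gave set 2 (0.319 to 0.737), and those of set 1 were -0.719 to 0.031. GC content came from GENCODE annotation of the NCBIM37 genome (equal to mm9) and was known for 95.8% of tested genes. Promoters came from RefSeq, and all 10 members were matched by symbol.

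Members and gene lists were chosen with earlier results of these data known. Named genes were the members, list genes that passed the test at 45 or 135 min, the 2 tested genes of each list with the highest control RPKM, and the 5 genes closest to Igf1 in CPM profile (log2 of CPM + 0.1). Other genes are marked as chosen after their values were seen. Some genes that these rules name are not reported here. Floors of 3 counts cover counting error only. Heat shock and tunicamycin samples were not analysed here.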

Additional observations from a re-analysis of the deposited data

Results flagged for a closer look

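A pair of values stood apart from the other libraries of their group by a gap test (the distance to the nearest library over the range of the group, against Dixon's 95% critical value). Chance passes it in about 1 of 20 groups of normally distributed values. That rate does not hold for the sparse counts of Igfbp5. Where all other libraries of a group hold 0, any library with reads passes, so nothing is read from these flags. Igfbp5 was at 2.25 CPM in control replicate 3, against at most 0.0642 CPM in the other 4 control libraries. This library was the shallowest of the series and had 28.5% of the reads implied by its RPKM values in genes, against 40.2% to 56.3% elsewhere. Igfbp5 was at 0.969 CPM in 405 min replicate 3, the only 405 min library of set 1, and at 0 in the other 3. All 5 libraries of set 2 held 0 to 2 reads of Igfbp5. The part of library set and of depth in these values was not tested.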

How the results depend on the processing

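Genes called higher and lower at an adjusted p of 0.05 were 0 and 0 at 45 min (365 at an unadjusted p under 0.05), 58 and 92 at 135 min, 19 and 25 for 135 against 45 min, and 1027 and 1382 at 405 min. Members called at 405 min were 2 higher and 3 lower, which is descriptive because that contrast was in view when they were chosen, and Igf1 was not among them with the length offset (-0.65). With DESeq2 they were 2 and 4, 161 and 269, and 57 and 64 in the first 3 comparisons. With library set as a covariate they were 3 and 1, 314 and 501, 45 and 60, and 634 and 706, with 0 members higher and 1 lower (Igf1r) at 405 min. Within library set 1 they were 216 and 361 at 135 min and 121 and 94 at 405 min, with 0 and 0 members. With only the compared groups they were 16 and 24 at 135 min, 32 higher for 135 against 45 min, and 349 and 463 at 405 min, with 0 members higher. With no filter they were 32 and 48 at 135 min. In the 9 libraries with the short Igf1 model, an alternative chosen after seeing the data, as were the length offset and the fit within library set 2, they were 0 and 0 at 135 min, 0 and 0 for 135 against 45 min, and 14 and 12 at 405 min, with 0 and 0 members. The cause of these shifts was not tested beyond the smaller number of samples or genes.

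Replicate numbers did not pair the samples (mean correlation of deviations -0.11 over 19 same-number pairs, 4 of them over 0.1, against 0.028 over 64 other pairs). With the replicate block the counts were 11 and 20 at 135 min, 1 and 4 for 135 against 45 min, and 333 and 467 at 405 min, with 1 member higher (Igf2r) and 0 lower.

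Leaving out 1 library at a time gave 20 to 115 genes higher and 22 to 182 lower at 135 min, 3 to 8 and 2 to 14 for 135 against 45 min, and 418 to 2517 and 528 to 2463 at 405 min, with 0 to 2 members higher and 1 to 3 lower. Without 405 min replicate 1, 2 or 4, Igf1, Igf2r, Igfbp6 and Igfbp7 each missed the threshold, and Igfbp6 also did without control replicate 1, 3, 4 or 5. At 405 min the sign of all 6 tested members was the same in all 20 other settings, Igf1 ranging from -3.06 to -0.49. These fits share libraries, and this contrast was in view when the members were chosen, so the agreement is a description only. No member passed at 45 min, 135 min or 135 against 45 min in any setting. Of the list genes named at 405 min, Ghr and Rptor passed in 9 of 10 other settings and Igf2bp2 and Pik3r1 in 8, all 4 in 9 of 9 fits without 1 library. Rictor, Foxo1, Foxo3 and Igf2bp3 each passed in 4 of 10 other settings, and in 6, 2, 3 and 3 of 9 fits without 1 library.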
